A study of Mus musculus with 15 samples.

Results

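A set of 10 genes of purinergic signalling was followed across cortical microglia, astrocytes and neurons: the nucleotide receptors P2ry12, P2ry13, P2ry6, P2ry1, P2rx4 and P2rx7, the adenosine receptors Adora1 and Adora3, and the ectonucleotidases Entpd1 and Entpd2. They were chosen by gene symbol, and all 10 were found once each among the 20610 genes of the deposited table. The libraries were polyA RNA-seq of microglia, astrocytes and neurons, 5 libraries of each (n = 5), magnetically isolated from cortex of WT mice, all male, at P28 (28 days after birth). Genotype, sex, age and tissue were the same in every group. No label says which libraries came from separate animals or whether animals were pooled, so p-values measure the spread between libraries, which may be technical. Levels are TPM, a unit of transcript abundance scaled to the same total in each library and corrected for transcript length, so that levels of different genes can be set side by side.

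ATP and ADP released by active or injured cells act on 2 receptor families, the P2X ion channels and the G protein-coupled P2Y receptors. Enzymes on the cell surface then remove phosphates step by step until adenosine is left, which acts on its own receptors. In the brain this system is best known for steering microglial processes towards sites of ATP release, for calcium signalling between astrocytes, and for the restraint of synaptic transmission by adenosine.

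As a check of the labels, 12 genes that mark microglia had a total of 80130 ± 15979 TPM (mean ± SD, n = 5) in microglia, 185 ± 26.2 TPM in astrocytes and 93.5 ± 23.2 TPM in neurons. For 10 genes that mark astrocytes the total was 524 ± 138 TPM in microglia, 24251 ± 1537 TPM in astrocytes and 287 ± 77.0 TPM in neurons. The 12 neuronal markers summed to 65.9 ± 45.5 TPM in microglia, 184 ± 55.2 TPM in astrocytes and 1098 ± 341 TPM in neurons. The libraries labelled neurons went against their label in part, since 11 endothelial markers summed to 31319 ± 4959 TPM there, far above the neuronal ones. The group is called neurons after its label, and its levels are those of the isolate, not of neurons alone. Mature oligodendrocyte markers ranged from 252 to 69786 TPM between microglia libraries. A difference was called where the adjusted p of limma was below 0.05 and the log2(TPM + 1) difference was at least 1. In TPM, fewer cells of a type in an isolate and less RNA per cell cannot be told apart.

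The genes lay on 6 chromosomes, with 4 of the 10 on chromosome 3 (P2ry12, P2ry13, P2ry1 and Adora3). Start regions in RefSeq (GRCm38.p6, the assembly also called mm10) matched 9 of the 10 genes, all but P2ry6. Each window holds 250 bases before the start site and 50 after it, read 5′ to 3′ on the strand of the gene. The windows of 4 of the genes whose transcripts were most abundant in microglia are shown with that of Entpd2, whose transcript was most abundant in astrocytes. All 4 hold a word marked below, which does not stand for every gene of that kind. Capitals mark GAGGAA or GGAAGT on either strand (overlapping matches run together), which are core letters of sites for PU.1 and related ETS factors. The windows lie at chr3:59262936-59263235 (P2ry12, minus strand), chr3:59210833-59211132 (P2ry13, minus strand), chr5:122643677-122643976 (P2rx7, plus strand), chr3:105904171-105904470 (Adora3, plus strand) and chr2:25395624-25395923 (Entpd2, plus strand).
P2ry12: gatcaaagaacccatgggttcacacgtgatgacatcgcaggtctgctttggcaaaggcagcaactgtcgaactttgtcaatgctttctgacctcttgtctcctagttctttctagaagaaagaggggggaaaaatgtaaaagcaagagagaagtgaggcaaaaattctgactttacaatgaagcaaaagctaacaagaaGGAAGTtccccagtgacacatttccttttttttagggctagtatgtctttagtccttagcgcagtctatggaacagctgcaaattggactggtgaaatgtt
P2ry13: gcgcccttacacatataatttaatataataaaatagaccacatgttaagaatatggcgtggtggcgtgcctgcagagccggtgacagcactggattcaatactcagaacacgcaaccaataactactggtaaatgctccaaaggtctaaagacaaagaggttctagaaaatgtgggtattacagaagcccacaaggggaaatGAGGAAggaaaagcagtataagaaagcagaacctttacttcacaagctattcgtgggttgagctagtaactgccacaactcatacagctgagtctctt
P2rx7: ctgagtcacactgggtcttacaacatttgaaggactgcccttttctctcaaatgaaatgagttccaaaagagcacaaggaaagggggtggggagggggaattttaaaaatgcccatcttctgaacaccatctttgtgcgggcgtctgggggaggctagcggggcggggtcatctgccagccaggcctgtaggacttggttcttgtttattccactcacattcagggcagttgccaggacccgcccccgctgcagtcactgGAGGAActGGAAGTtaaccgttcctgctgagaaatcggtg
Adora3: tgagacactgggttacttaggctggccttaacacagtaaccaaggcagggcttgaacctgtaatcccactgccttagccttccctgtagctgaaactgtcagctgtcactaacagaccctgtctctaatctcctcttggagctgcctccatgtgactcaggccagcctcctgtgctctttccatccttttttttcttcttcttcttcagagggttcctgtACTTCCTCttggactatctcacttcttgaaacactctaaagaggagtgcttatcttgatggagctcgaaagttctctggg
Entpd2: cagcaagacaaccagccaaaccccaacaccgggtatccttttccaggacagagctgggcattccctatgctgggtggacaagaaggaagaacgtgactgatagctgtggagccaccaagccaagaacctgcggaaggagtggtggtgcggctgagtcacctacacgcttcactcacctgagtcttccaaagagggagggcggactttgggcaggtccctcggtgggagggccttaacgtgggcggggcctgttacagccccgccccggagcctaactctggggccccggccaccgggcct

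The P2ry12 window held GGAAGT at base -51 from the start site, and the P2ry13 window held GAGGAA at base -48. In the Adora3 window both words overlapped on the opposite strand, at -28 and -30. The P2rx7 window held both downstream of the start site, at 10 and 18, and the Entpd2 window held neither. Among windows not shown, that of P2rx4 and the upstream one of Entpd1, both genes most abundant in microglia, held neither word. A window of Adora1, which was lower in microglia, held GGAAGT. Of the 9 matched genes, 6 had a window with either word (P2ry12, P2ry13, P2rx7, Adora1, Adora3 and Entpd1), some with 2 windows searched. Of all 32851 windows of the same length, 28.3% held GAGGAA, 23.8% held GGAAGT and 43.4% held either. Base composition differed among the genes. GC content was 42.3% in the windows of P2ry12 and of P2ry13 and 48.3% in that of Adora3, with 4, 6 and 1 CpG sites. The windows of P2rx7 were near the median of all, with 53.3% GC and 8 CpG sites in the one shown and 51.7% and 4 in the other. The windows of P2ry1 (70.7% GC, 25 CpG sites), P2rx4 (60.3%, 18 sites), Entpd2 (62.0%, 13 sites) and Adora1 (66.0% in both windows, 26 and 24 sites) were richer, against a median of 52.7% and 7 sites over all windows. Entpd1 had an upstream window with 64.0% GC and 23 CpG sites and a downstream one with 48.7% and 10.

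Set against astrocytes, microglia had more P2ry12, P2ry13, P2ry6, P2rx7, Adora3 and Entpd1 transcript and less P2ry1, Adora1 and Entpd2. These 9 calls compare with 42.5% of tested genes called in either direction. The 6 higher genes compare with 10.2% of all 13351 tested genes called higher in microglia, and the 3 lower with 32.3% called lower. Against neurons, 7 of the 10 were higher in microglia (the same 6 and P2rx4), with 9.74% of tested genes called higher, and P2ry1 and Adora1 were lower, with 29.5% called lower (9 of 10 in either direction, against 39.3%). The 6 genes higher than in both other cell types compare with 7.42% of tested genes, and the 2 lower than in both with 18.3%. None of the 10 was called higher in neurons than in both others, against 9.58%. Between astrocytes and neurons 2 of the 10 were called (25.6% of tested genes), Entpd2 higher in astrocytes (12.7% of tested genes called higher) and Entpd1 lower (12.9% called lower). The median log2 difference of the 10 genes was 2.99 for microglia minus astrocytes and 2.79 for microglia minus neurons. Over all tested genes these medians were -0.57 and -0.48. Groups did not overlap for 10 of 10 genes between microglia and astrocytes (58.4% of tested genes), 8 between microglia and neurons (54.3%) and 4 between astrocytes and neurons (39.0%).

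All 10 genes reached 1 TPM in at least 5 libraries, the filter for testing. P2ry13, P2ry6 and Adora3 would not have reached it without the microglia libraries, so a difference in their case was built into the selection, their calls are descriptive, and no p is given for microglia against the others. The scale of the table also matters for genes near a threshold. Of the genes called between microglia and astrocytes, 24.0% were higher in microglia, and 46.6% with median-of-ratios scaling or 45.3% with quantile normalization. For microglia against neurons the share was 24.8%, and 44.2% or 44.4% with these scalings. They moved the median difference of all genes to -0.02 and -0.05 against astrocytes, and to 0.02 and -0.03 against neurons.

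**Figure D1:**
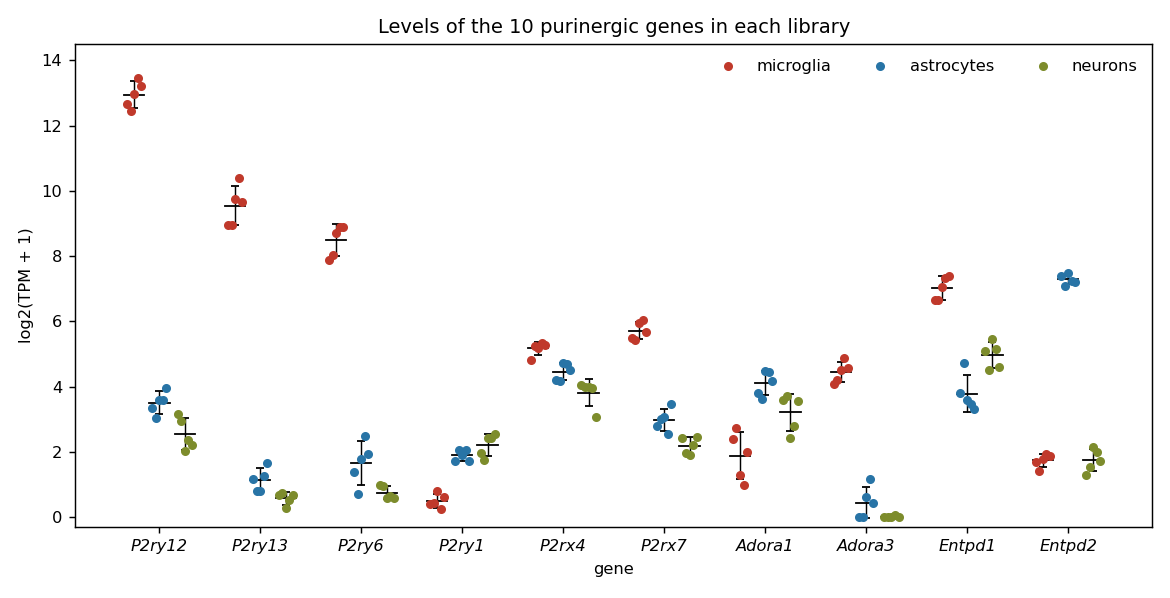
Level of each of the 10 genes in log2(TPM + 1) on the vertical axis, with 1 point per library (microglia, astrocytes, neurons, n = 5 each), a line at the group mean and bars of 1 SD. P2ry12, P2ry13 and P2ry6 stand highest in microglia with no overlap with the other cell types, Entpd2 stands high in astrocytes, and P2rx4 shows the smallest step between microglia and astrocytes (0.71).

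Among the P2Y receptors, P2ry12 (chr3:59216272-59262871, mm10) was the most abundant gene of the set. It encodes the ADP receptor that directs microglial processes and also serves platelet aggregation. Its level was 6464, 5548, 7985, 11346 and 9411 TPM in microglia libraries 1 to 5, against 9.11, 7.16, 11.1, 11.1 and 14.6 TPM in astrocytes and 7.88, 6.72, 3.08, 4.17 and 3.61 TPM in neurons. Every microglia library lay far above all others, and the ranges of astrocytes and neurons overlapped. The log2 difference was 9.44 ± 0.24 (SE) for microglia minus astrocytes (adjusted p = 1.23e-15) and 10.41 ± 0.24 for microglia minus neurons (adjusted p = 2.68e-16).

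For P2ry12 in astrocytes minus neurons the difference was 0.96 ± 0.24 (adjusted p = 0.00216), which missed the limit of 1 and so was not called. It passed that limit with a pseudocount of 0.1 (1.10) and with array weights (1.24). It also passed without astrocyte library 1 (1.01) or 2 (1.08), without neuron library 1 (1.12) or 2 (1.07), and without all libraries numbered 1 and 2 (1.52). Neuron libraries 1 and 2, the highest for P2ry12, were also those with the highest sums of microglia markers (109 and 126 TPM, against 68.6 to 84.1 TPM in the others). In astrocytes, library 5 was the highest for both (14.6 TPM of P2ry12 and 219 TPM of markers). Astrocyte library 1, with 205 TPM of markers, had less P2ry12 (9.11 TPM) than library 3 with 154 TPM of markers (11.1 TPM). The part of microglial RNA in these levels was not tested.

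P2ry13 (chr3:59207892-59210882), a second receptor for ADP, lies next to P2ry12. It measured 497, 496, 857, 1343 and 801 TPM in microglia, 1.26, 0.72, 0.74, 1.39 and 2.13 TPM in astrocytes and 0.59, 0.68, 0.20, 0.42 and 0.60 TPM in neurons. Microglia did not overlap with the other groups, and microglia library 4 was the highest. The log2 difference was 8.41 ± 0.25 against astrocytes and 8.97 ± 0.25 against neurons. Astrocytes minus neurons was 0.56 ± 0.25 (adjusted p = 0.0620), not called, although the ranges did not overlap, and it was called with a pseudocount of 0.1 (1.15).

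P2ry6 (chr7:100937630-100974649) encodes the UDP receptor that triggers phagocytosis by microglia. It measured 234, 262, 416, 474 and 477 TPM in microglia, 1.60, 0.62, 2.43, 4.55 and 2.85 TPM in astrocytes and 0.96, 0.95, 0.51, 0.55 and 0.50 TPM in neurons. Microglia stood apart from both other groups, by 6.83 ± 0.28 against astrocytes and 7.73 ± 0.28 against neurons on the log2 scale. The astrocyte and neuron ranges overlapped because astrocyte library 2 was low. Astrocytes minus neurons was 0.90 ± 0.28 (adjusted p = 0.0108), not called, and it was called without astrocyte library 2 (1.14), without all libraries numbered 1 and 2 (1.46), with array weights (1.13) and with a pseudocount of 0.1 (1.47).

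P2ry1 (chr3:61002795-61008982), an ADP receptor coupled to calcium release and studied mostly in astrocytes and platelets, had the opposite order at a low level. It measured 0.33, 0.36, 0.73, 0.18 and 0.52 TPM in microglia, 2.27, 3.11, 2.77, 3.18 and 2.30 TPM in astrocytes and 2.90, 2.34, 4.33, 4.32 and 4.80 TPM in neurons. All microglia libraries lay below all others, by a log2 difference of -1.39 ± 0.17 against astrocytes (adjusted p = 9.72e-07) and -1.72 ± 0.17 against neurons (adjusted p = 7.87e-08). The call against astrocytes was lost with quantile normalization (-0.75). Astrocytes and neurons overlapped (-0.32, 95% interval -0.68 to 0.04, adjusted p = 0.119). An antisense gene shares 23.1% of the exonic bases of P2ry1, and since the strand setting of the counting is not given, their reads may be mixed.

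Within the P2Y family the makeup differed by cell type. The 7 P2Y genes measured (the 4 above with P2ry2, P2ry4 and P2ry14) summed to 9326 ± 2749 TPM in microglia, 94.2 ± 13.5 TPM in astrocytes and 109 ± 6.16 TPM in neurons. P2ry12 made up 87.6 ± 1.51% of that sum in microglia, 11.2 ± 2.29% in astrocytes and 4.73 ± 2.08% in neurons. P2ry14, a receptor for UDP-glucose and other UDP-sugars, made up 0.0436 ± 0.0267% in microglia, 80.9 ± 3.42% in astrocytes and 89.7 ± 1.81% in the libraries labelled neurons. The part of endothelial and mural RNA, whose markers summed to 31319 and 3447 TPM on average in those libraries, in their P2ry14 level was not tested.

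P2ry14, P2ry13 and P2ry12 lie in this order on the minus strand of chromosome 3, within the span of Med12l, which is read from the other strand. P2ry14 (chr3:59113855-59153618) measured 2.11, 5.16, 5.55, 2.07 and 3.37 TPM in microglia, 65.9, 67.3, 86.4, 87.5 and 73.2 TPM in astrocytes and 90.8, 95.1, 96.9, 96.1 and 109.5 TPM in neurons. It was lower in microglia without overlap, by -4.11 ± 0.19 against astrocytes (adjusted p = 2.63e-12) and -4.48 ± 0.19 against neurons (adjusted p = 1.16e-12) on the log2 scale. The direction was thus the reverse of that of its neighbours P2ry13 and P2ry12. All 4 RefSeq start windows of P2ry14 also held GAGGAA, but windows 2 and 3 overlap and hold the same site. Med12l measured 3.33 ± 1.07 TPM in microglia, 0.584 ± 0.231 in astrocytes and 0.378 ± 0.252 in neurons, and shares 9 exonic bases with P2ry12. Gpr171, also in the span, stayed below 1 TPM in every library.

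**Figure D2:**
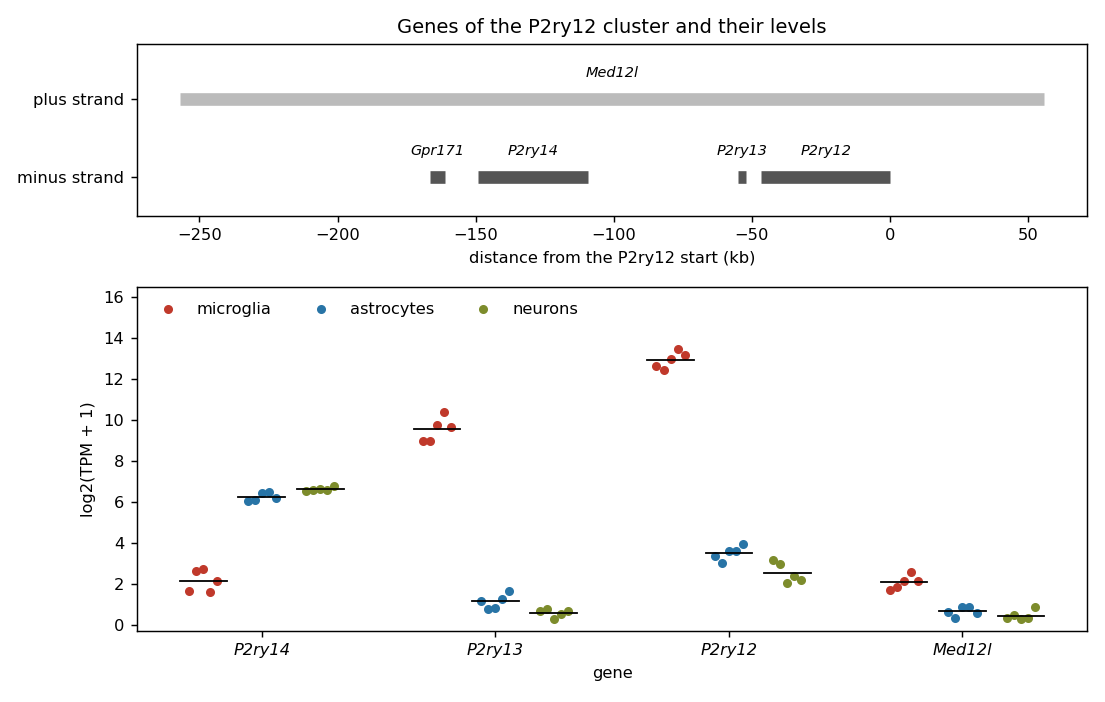
Top, spans of 5 genes at the P2ry12 locus by strand, as distance in kb from the P2ry12 start; bottom, log2(TPM + 1) of 4 of them with 1 point per library (n = 5 per cell type) and a line at the mean. P2ry13 and P2ry12 are high in microglia while P2ry14, in the same span, is low there and averages 76.1 TPM in astrocytes and 97.7 TPM in neurons.

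Of the P2X channels, P2rx4 and P2rx7 were above 1 TPM in every library, while P2rx2 and P2rx5 were below it in all. P2rx7 (chr5:122643911-122691432), which opens at high ATP and drives release of interleukin-1 from microglia, measured 43.7, 42.2, 60.2, 64.2 and 49.8 TPM in microglia, 5.85, 7.08, 7.31, 4.87 and 10.1 TPM in astrocytes and 4.36, 2.90, 2.75, 3.62 and 4.43 TPM in neurons. The 3 groups did not overlap. The log2 difference was 2.74 ± 0.19 for microglia minus astrocytes (adjusted p = 3.84e-10) and 3.52 ± 0.19 for microglia minus neurons (adjusted p = 1.69e-11). Astrocytes minus neurons was 0.79 ± 0.19 (adjusted p = 0.00172), below the limit for a call.

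P2rx4 (chr5:122707544-122729738), a channel with high affinity for ATP that is known for its part in microglial responses to nerve injury, lies next to P2rx7 and differed less. It measured 26.8, 37.2, 35.6, 39.0 and 37.6 TPM in microglia, 17.4, 16.8, 25.5, 24.7 and 21.8 TPM in astrocytes and 15.5, 14.9, 14.7, 14.4 and 7.42 TPM in neurons. The groups followed that order without overlap. Only microglia minus neurons was called (1.36 ± 0.19, adjusted p = 4.78e-06). Microglia minus astrocytes was 0.71 ± 0.19 (adjusted p = 0.00267), which median-of-ratios scaling (1.38) and quantile normalization (1.18) turned into a call. Astrocytes minus neurons was 0.65 ± 0.19 (adjusted p = 0.00751), not called. In microglia P2rx7 was thus above P2rx4 in all 5 libraries, whereas P2rx4 was above P2rx7 in every astrocyte and neuron library.

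The adenosine receptors Adora3 and Adora1 differed in opposite directions between microglia and the other groups, Adora3 being higher and Adora1 lower in microglia. Adora3 (chr3:105870858-105908926), an inhibitory adenosine receptor also known from mast cells, measured 15.9, 17.5, 21.5, 28.5 and 22.6 TPM in microglia. In astrocytes it was listed at 0 in libraries 1 and 2 and measured 0.52, 1.22 and 0.36 TPM in the others. In neurons it was listed at 0 in 4 libraries and at 0.05 TPM in library 4. Microglia did not overlap with the other groups. The log2 difference was 4.01 ± 0.21 against astrocytes and 4.43 ± 0.21 against neurons, values that depend on the pseudocount. Astrocytes minus neurons was 0.43 ± 0.21 (adjusted p = 0.0900), called with a pseudocount of 0.1 (1.59). Adora3 shares 20.9% of its exonic bases with Tmigd3 on the same strand, so reads of the pair may be split. The Tmigd3 entry of that locus measured 1.68 ± 0.487 TPM in microglia and 0.376 ± 0.121 in astrocytes and was listed at 0 in neurons. Another entry under the symbol Tmigd3 measured 0.412 ± 0.418 TPM in microglia and 0.034 ± 0.048 in neurons and was listed at 0 in astrocytes.

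Adora1 (chr1:134199223-134235431), the receptor through which adenosine restrains transmitter release, measured 4.25, 5.62, 1.46, 0.98 and 2.99 TPM in microglia, 13, 11.4, 21.3, 20.6 and 16.9 TPM in astrocytes and 11.1, 12.04, 4.31, 5.90 and 10.7 TPM in neurons. Microglia lay below all astrocyte libraries but overlapped with neurons, and astrocytes overlapped with neurons. Microglia minus astrocytes was -2.22 ± 0.33 (adjusted p = 8.15e-06) and microglia minus neurons was -1.33 ± 0.33 (adjusted p = 0.00148). The call against neurons was lost with median-of-ratios scaling (-0.86) and quantile normalization (-0.78). Astrocytes minus neurons was 0.89 ± 0.33 (adjusted p = 0.0274), not called, and was called without astrocyte library 2 (1.01), without neuron library 2 (1.02) and without all libraries numbered 1 and 2 (1.44). Mybph, on the other strand, shares 20.1% of the exonic bases of Adora1 and measured 1.23 ± 0.514 TPM in microglia, 0.0880 ± 0.112 in astrocytes and 0.138 ± 0.148 in neurons.

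Adora1 varied together with oligodendrocyte transcripts inside 2 of the groups. Microglia libraries 1 and 2, the highest for Adora1, had mature oligodendrocyte sums of 69786 and 52001 TPM, against 252 to 8179 TPM in libraries 3 to 5. Neuron libraries 1 and 2, also the highest for Adora1, had sums of 8469 and 10369 TPM, against 212, 236 and 1638 TPM in libraries 3, 4 and 5. In astrocytes library 2 had the highest sum (3810 TPM, against 445 to 1286 TPM) and the lowest Adora1. The part of these transcripts in the levels of Adora1 was not tested.

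The ectonucleotidases divided between microglia and astrocytes. Entpd1 (chr19:40612366-40741602), which encodes CD39 and takes ATP and ADP down to AMP, measured 99.7, 100.05, 132, 161 and 168 TPM in microglia, 13.1, 25.6, 10.9, 10.04 and 8.88 TPM in astrocytes and 32.9, 21.8, 42.6, 34.4 and 23.1 TPM in neurons. Microglia did not overlap with either group, by a log2 difference of 3.24 ± 0.25 against astrocytes (adjusted p = 2.43e-09) and 2.07 ± 0.25 against neurons (adjusted p = 1.02e-06). Astrocytes were below neurons (-1.18 ± 0.25, adjusted p = 7.41e-04), with astrocyte library 2 inside the neuron range. This call was lost without all libraries numbered 3 and 4 (-0.78, adjusted p = 0.0676). Entpd1 is also a gene of vascular endothelium, and the endothelial markers, none of the 11 at 0 throughout a group, summed to 328 to 704 TPM in microglia libraries, 1869 to 2473 TPM in astrocyte libraries and 27147 to 39677 TPM in neuron libraries. Their part in the neuron level of Entpd1 was not tested.

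Entpd2 (chr2:25395874-25401321), whose enzyme prefers ATP and leaves ADP, was the only gene of the 10 called higher in astrocytes than in both other cell types, against 10.2% of all tested genes. It measured 2.22, 1.63, 2.46, 2.84 and 2.62 TPM in microglia, 165, 135, 178, 151 and 147 TPM in astrocytes and 1.46, 1.91, 3.42, 2.98 and 2.31 TPM in neurons. Astrocytes were far above, and microglia and neurons covered the same range. The log2 difference was -5.55 ± 0.17 for microglia minus astrocytes (adjusted p = 9.36e-15) and 5.54 ± 0.17 for astrocytes minus neurons (adjusted p = 3.76e-14). For microglia minus neurons it was -0.01 (95% interval -0.36 to 0.35, adjusted p = 0.974). Npdc1 shares 28.8% of the exonic bases of Entpd2 on the same strand and had another pattern, with 19.1 ± 10.3 TPM in microglia, 129.6 ± 10.6 in astrocytes and 134 ± 24.6 in neurons.

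**Figure D3:**
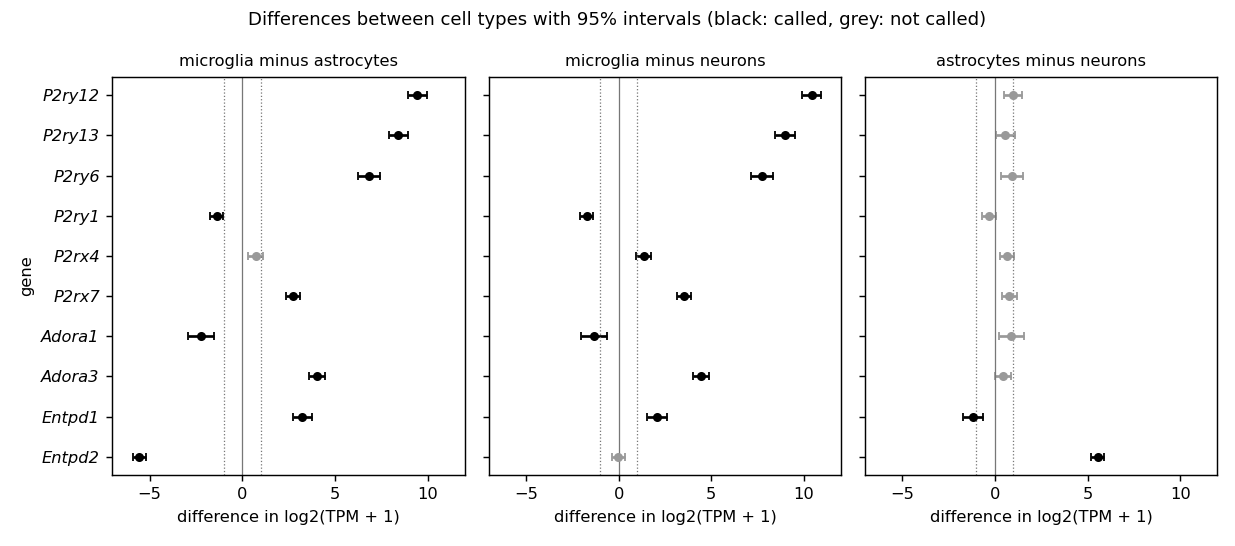
Difference in log2(TPM + 1) for the 10 genes (points, with 95% intervals from limma) in microglia minus astrocytes, microglia minus neurons and astrocytes minus neurons; black points were called, grey ones were not, and dotted lines mark a difference of 1. In the third panel only Entpd1 (-1.18) and Entpd2 (5.54) are black, while P2ry12 (0.96) sits just inside the dotted line.

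Ordered by mean level, microglia had P2ry12, P2ry13, P2ry6, Entpd1, P2rx7, P2rx4, Adora3, Adora1, Entpd2 and P2ry1. Their means were 8151, 799, 373, 132, 52.0, 35.2, 21.2, 3.06, 2.35 and 0.424 TPM. Among neighbours in this order, the ranges of P2rx4 and Adora3 overlapped, as did those of Adora1 and Entpd2. Adora1 was below Entpd2 in microglia libraries 3 (1.46 against 2.46 TPM) and 4 (0.98 against 2.84 TPM). Astrocytes had Entpd2 first (155 ± 16.6 TPM), then P2rx4 (21.2 ± 4.02), Adora1 (16.6 ± 4.43), Entpd1 (13.7 ± 6.83) and P2ry12 (10.6 ± 2.76), and the ranges of neighbours among the last 4 overlapped. Neurons had Entpd1 first (31.0 ± 8.61 TPM), then P2rx4 (13.4 ± 3.36) and Adora1 (8.81 ± 3.46), whose ranges overlapped. The 10 genes together summed to 9569 ± 2794 TPM in microglia, 231 ± 18.9 TPM in astrocytes and 69.2 ± 8.40 TPM in neurons.

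The microglia libraries differed among themselves. For 7 of the 10 genes (P2ry12, P2ry13, P2ry6, P2rx7, Adora3, Entpd1 and Entpd2) libraries 1 and 2 were both below libraries 3 to 5, and for Adora1 both were above. The share of all tested genes in either order was not computed, so these counts cannot be read as particular to the 10 genes. Libraries 1 and 2 had the highest mature oligodendrocyte sums, and their microglia marker sums were also lower (65352 and 62088 TPM, against 82287 to 96600 TPM). The part of oligodendrocyte RNA in these differences was not tested. When each level was divided by the microglia marker sum of its library, the coefficient of variation over the 5 libraries fell to 5.20% for Entpd1, against 24.5% in TPM. It was 11.5% against 28.4% for P2ry12, 14.1% against 31.2% for P2ry6, 10.5% against 23.2% for Adora3 and 12.5% against 18.9% for P2rx7. P2ry13 kept a wider spread (28.4% against 43.5%). For Adora1 (78.9% against 63.0%) and P2rx4 (19.0% against 13.8%) the spread was wider after division. The division was not applied to all tested genes, so a change in spread cannot be read as particular to these genes. Without microglia libraries 1 and 2, no call among the 10 genes changed against astrocytes or neurons.

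**Figure D4:**
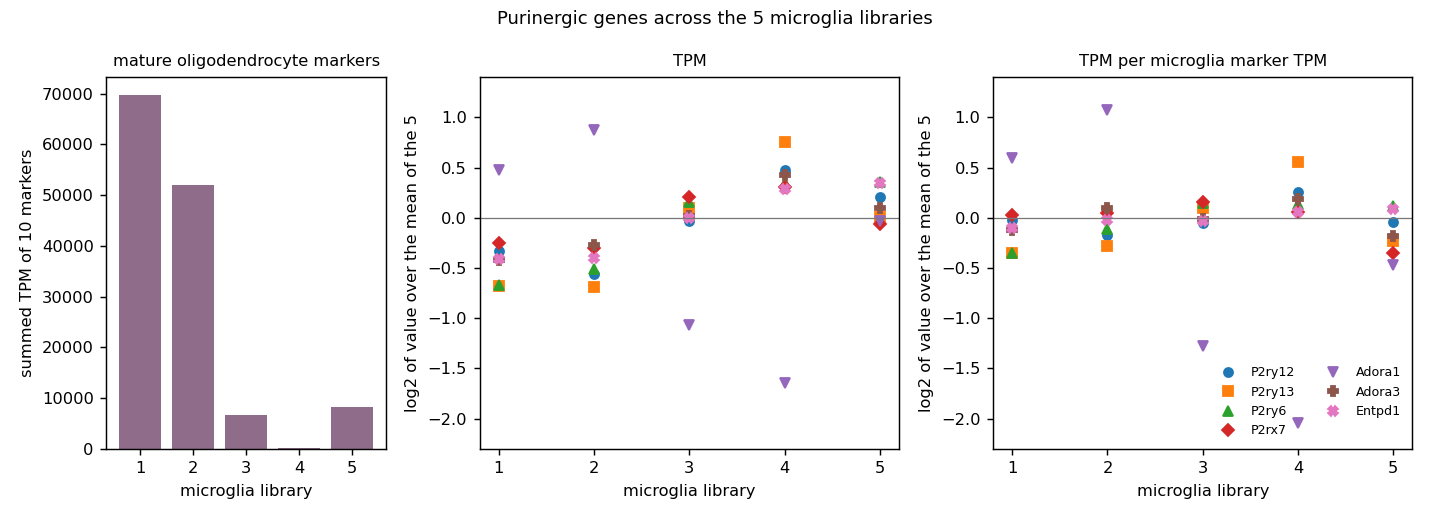
Left, summed TPM of 10 mature oligodendrocyte markers in microglia libraries 1 to 5; middle and right, 7 of the genes as log2 of the value over the mean of the 5 libraries, in TPM and after division by the summed TPM of 12 microglia markers. Libraries 1 and 2 hold 69786 and 52001 TPM of oligodendrocyte markers, and the coefficient of variation of P2ry12 is 11.5% after division, against 28.4% in TPM.

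The same division was used to describe the low levels outside microglia. The mean ratio of a gene to the microglia marker sum in microglia, multiplied by the marker sum of another library, gives the level at which that ratio would be the same. P2ry12 stood at 0.396 to 0.715 of that level in astrocyte libraries and 0.381 to 0.721 in neuron libraries, and P2ry13 at 0.412 to 1.003 and 0.256 to 0.734. P2ry6 stood at 0.755 to 5.90 times that level in astrocytes and 1.30 to 1.94 times in neurons. P2rx7 stood at 43.6 to 72.2 times in astrocytes and 35.2 to 80.6 times in neurons, Entpd1 at 24.8 to 87.0 and 106 to 324 times, and P2rx4 at 189 to 368 and 196 to 467 times. Adora3, with libraries of both groups listed at 0, ranged from 0 to 27.3 times in astrocytes and from 0 to 2.75 times in neurons. None of the 12 microglia markers was at 0 in all libraries of either group.

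P2ry12 and P2ry1 are also platelet receptors, and 9 platelet markers were checked. They summed to 93.4 to 175.7 TPM in microglia, 5.41 to 12.02 TPM in astrocytes and 12.3 to 26.03 TPM in neurons. In microglia Gp9 made up nearly all of the sum (89.6 to 168 TPM). Itgb3 was also higher there (1.97 to 4.36 TPM, against 0.02 to 0.30 TPM in astrocytes and 0.13 to 0.42 TPM in neurons). Itga2b (0.02 to 0.45 TPM in microglia, against at least 2.11 TPM in each astrocyte or neuron library) was lower. Ppbp was at 0.25 to 1.19 TPM and Gp6 at 0 to 0.01 TPM in microglia. Border macrophage markers summed to 1323 to 2002 TPM in microglia, 47.3 to 79.8 TPM in astrocytes and 38.9 to 70.1 TPM in neurons. The largest part of that sum in microglia was Pf4 (789 to 1363 TPM), while Mrc1 was at 13.9 to 22.3 TPM and Cd163 at 2.35 to 6.28 TPM. Neutrophil and monocyte markers summed to 411 to 1065 TPM in microglia, 4.63 to 26.9 in astrocytes and 16.7 to 35.2 in neurons. The part of these cells in the microglia levels was not tested.

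The rest of the pathway was read from a list of 40 genes, of which 27 reached the filter. Of these, 10 would have missed it without 1 of the cell types (P2ry2, P2rx6, Nt5e, Enpp1, Ada, Slc29a2, Slc29a4, Panx2, Slc17a9 and Kcnk13), so the counts below are descriptive. Against astrocytes 8 were higher and 11 lower in microglia, with a median log2 difference of -0.63. Against neurons 6 were higher and 8 lower (median -0.31). Between astrocytes and neurons 7 were higher and 1 lower in astrocytes (median -0.16). The shares of all tested genes called are those given above for each direction.

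The remaining adenosine receptors were lower in microglia. Adora2b, a receptor of low affinity that raises cyclic AMP, measured 2.93 ± 0.854 TPM in microglia, 110.2 ± 19.4 TPM in astrocytes and 9.53 ± 2.25 TPM in neurons. Its log2 difference was -4.83 ± 0.19 for microglia minus astrocytes (adjusted p = 1.65e-13) and 3.42 ± 0.19 for astrocytes minus neurons (adjusted p = 5.73e-11). The smaller difference against neurons (-1.42) was no longer called with median-of-ratios scaling (-0.93) or quantile normalization (-0.91). Adora2a measured 0.150 ± 0.116 TPM in microglia, 2.94 ± 0.996 in astrocytes and 2.72 ± 0.994 in neurons, lower in microglia than in both others. Over the 4 adenosine receptor genes the sum was 27.4 ± 3.52 TPM in microglia, 130.2 ± 24.2 TPM in astrocytes and 21.1 ± 4.33 TPM in neurons, and Adora3 led it in microglia while Adora2b led it in astrocytes.

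Genes that make or clear adenosine were spread over the cell types. Nt5e, which encodes CD73 and turns AMP into adenosine, was low in all, at 0.220 ± 0.115 TPM in microglia, 1.35 ± 0.368 in astrocytes and 2.65 ± 0.805 in neurons. Microglia minus neurons was -1.56 ± 0.16, and -0.98 with quantile normalization. Alpl, a phosphatase with a broad range of substrates, was at 2.74 ± 0.695 TPM in microglia, 33.4 ± 6.36 in astrocytes and 39.4 ± 15.7 in the libraries labelled neurons. Alpl is also a gene of brain vessels, and the part of endothelial RNA in the last value was not tested. Adk, the kinase that removes adenosine inside cells, was at 25.5 ± 6.90 TPM in microglia, 398 ± 30.4 in astrocytes and 107 ± 20.4 in neurons, with astrocytes above neurons by 1.91 ± 0.19 (adjusted p = 1.41e-07). Pnp, which splits inosine further, was highest in microglia (305 ± 71.1 TPM, against 91.6 ± 14.7 in astrocytes and 53.4 ± 10.3 in neurons).

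The nucleoside transporters were split as well. Slc29a3, an equilibrative transporter of lysosomes, was at 62.8 ± 13.8 TPM in microglia, 10.5 ± 2.41 in astrocytes and 2.44 ± 0.440 in neurons, and Slc29a1, the main one of the cell surface, at 66.9 ± 14.9, 20.5 ± 3.71 and 24.9 ± 7.12 TPM in the same order. Slc29a2 was highest in astrocytes (0.620 ± 0.208 TPM in microglia, 10.2 ± 2.76 in astrocytes and 1.01 ± 0.241 in neurons). Enpp2, the lysophospholipase autotaxin and also a gene of oligodendrocytes, was called in no comparison with all libraries and ranged from 2.86 to 192 TPM between microglia libraries. It was called against astrocytes without microglia library 4 (1.35). Its 2 highest microglia libraries were those with the highest mature oligodendrocyte sums.

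Among the remaining channels and release genes, Kcnk13 encodes a potassium channel that sets the resting potential of microglia and is linked to P2ry12. It measured 18.9 ± 5.49 TPM in microglia, 0.300 ± 0.138 in astrocytes and 0.326 ± 0.146 in neurons. Kcnk13 and Slc17a9 reached 1 TPM in the microglia libraries alone, so a difference was built into their selection and no test is given. Slc17a9, the vesicular carrier of nucleotides, was at 5.50 ± 1.78 TPM in microglia, 0.116 ± 0.111 in astrocytes and 0.218 ± 0.137 in neurons. Calhm2 was higher in microglia as well (14.9 ± 4.34 TPM, against 2.57 ± 0.637 in astrocytes and 4.49 ± 1.04 in neurons). Panx1, a channel that releases ATP, was not called in any comparison with all libraries weighted alike (3.72, 4.18 and 7.01 TPM on average in microglia, astrocytes and neurons). Among P2X genes, P2rx6 was highest in astrocytes (0.212 ± 0.0858 TPM in microglia, 3.30 ± 1.07 in astrocytes and 0.310 ± 0.138 in neurons). P2rx1 was at 3.47 ± 1.28 TPM in microglia, 0.572 ± 0.243 in astrocytes and 3.72 ± 1.59 in neurons.

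**Figure D5:**
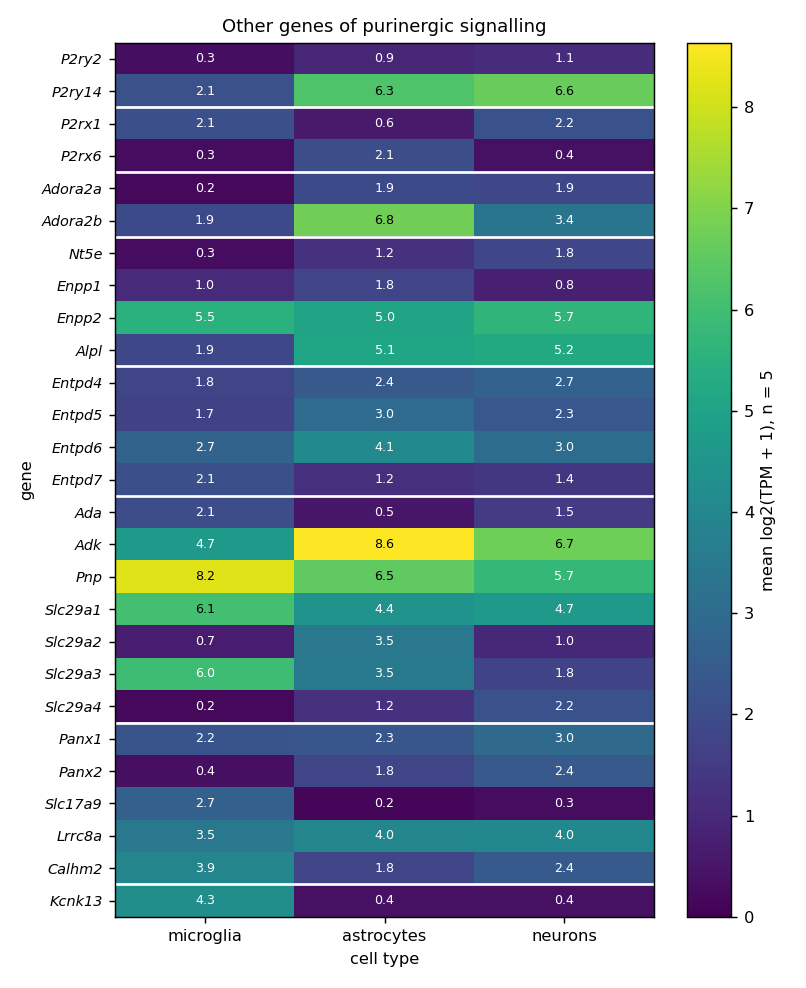
Mean log2(TPM + 1) of the 27 other pathway genes that reached the filter (rows, in groups by role) in microglia, astrocytes and neurons (columns, n = 5 each), with the value written in each cell. Kcnk13 and Slc29a3 are highest in microglia, Adora2b and Adk in astrocytes, and P2ry14 is high in astrocytes and neurons but low in microglia.

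The genes with the most similar profiles were found by the root-mean-square difference of mean-centred log2(TPM + 1) over the 15 libraries. All genes were measured in the same libraries, so shared differences between cell types or libraries also bring profiles near. Nearest to P2ry12 were Ctss (0.27), Siglech (0.38) and C1qa (0.41), and near to P2ry13 were Csf1r (0.25) and Ly86 (0.29). Those of P2ry6 were Ccl9 (0.33), Fcgr1 (0.41) and Lair1 (0.43), and those of P2rx7 were Cyp27a1 (0.26), Plekho1 (0.27) and Clec4n (0.28). Adora3 was nearest to Ccr1 (0.19), Tgfbr1 (0.20) and Cd200r1 (0.22), and Entpd1 to B2m (0.40), Clic1 (0.41) and Arhgdib (0.42). B2m had 9910 TPM in microglia, 858 in astrocytes and 2721 in neurons on average, the same order as Entpd1. Entpd2 was nearest to the astrocyte genes Lcat (0.30), Plpp3 (0.32) and Clu (0.32), and Adora1 to Srebf2 (0.22), Sbk1 (0.26) and Tafa5 (0.27). P2ry1 was nearest to Psmc3ip (0.11), Dnajc9 (0.17) and Rbm24 (0.18), and P2rx4 to Rnf135 (0.21), Arhgap12 (0.22) and Slc35b2 (0.23).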

How the data were processed

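The deposited table gives TPM per gene for 15 polyA RNA-seq libraries, as computed by the authors, and all 15 columns were used. The submitters' processing notes list the mm10 build, the aligner STAR (2.7.1a), the quantifier RSEM (1.2.28), the trimmer Trim Galore (0.6.4) and DESeq2 (1.36.0), with no role or order. Per the labels' protocols, cDNA was amplified by PCR before libraries were made. TPM keeps no depth per library, so the precision of low values is unknown. The annotation and strand setting are not given in the sources used here.

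Gene coordinates and exon overlaps are from GENCODE vM21 (mm10), which held 20499 of the 20610 gene IDs and all 10 genes described. Start windows are from RefSeq. TPM were taken as log2(TPM + 1), and the 13351 genes that reached 1 TPM in 5 or more libraries were fitted in limma 3.58.1 (R 4.3.3) with a mean per cell type and a variance trend, without a replicate block. P-values were Benjamini-Hochberg adjusted over all of them, and fold changes of low genes are understated on this scale. The code was tested on simulated data. Python 3.11.15, numpy 2.4.6, pandas 2.3.3 and matplotlib 3.10.9 were also used.

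The genes, the pathway and marker lists and the alternatives were chosen with earlier results of these data known. Named genes are the 10, those of the pathway list, overlapping or neighbouring genes and the 3 nearest profiles of each, apart from items not reported here. The sequence words, the division by microglia markers and the omission of microglia libraries 1 and 2 were chosen after the data were seen. Acp3 was matched through its older symbol Acpp. Of 8 red blood cell markers 4 were in the table, at a sum of 1.20 to 6.30 TPM in microglia, 4.49 to 10.6 in astrocytes and 194 to 1021 in neurons. Mural markers summed to 148 ± 53.2, 1870 ± 289 and 3447 ± 945 TPM, and oligodendrocyte precursor markers to 105 ± 73.4, 1626 ± 373 and 304 ± 134 TPM, in the same order. Replicate numbers are shared between cell types. Same-numbered libraries deviated together in microglia and neurons (r of 0.216 to 0.382 across genes, 5 pairs), all above the 0.1 set as the rule for pairing. Those of microglia and astrocytes (-0.0110 to 0.249) and of astrocytes and neurons (-0.0329 to 0.233) did not all exceed 0.1. Differently numbered libraries were not compared, so these values cannot show that the numbers pair. Libraries 1 and 2 had the highest mature oligodendrocyte sums in both microglia and neurons. Any pairing is read from the data, not the labels.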

Additional observations from a re-analysis of the deposited data

Results flagged for a closer look

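Within each cell type the highest and lowest library of 37 tested purinergic genes were compared with the others by Dixon's test, in 111 groups of 5. In all, 9 values stood apart, each that of a library for a single gene. Chance flags about 1 in 20 groups. Among the 10 genes, P2rx4 was low in microglia library 1 (26.8 TPM, against 35.6 to 39.0 in the others) and in neuron library 5 (7.42 TPM, against 14.4 to 15.5). Entpd1 was high in astrocyte library 2 (25.6 TPM, against 8.88 to 13.1), the astrocyte library with the highest mature oligodendrocyte sum. In microglia, libraries 1 and 2 had the highest such sums and the lowest Entpd1 (99.7 and 100.05 TPM). Neuron library 2, with the highest sum of its group, was also the lowest for Entpd1 (21.8 TPM), while neuron library 1, the next in sum, was in the middle (32.9 TPM). The part of oligodendrocyte RNA in the Entpd1 levels was not tested. Adora3 was at 0.05 TPM in neuron library 4 and listed at 0 in the others. With all the others at 0, any value above 0 is flagged, so the chance rate does not apply to this group.

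Among the other pathway genes, microglia library 3 was high for P2ry2 (0.78 TPM, against 0.10 to 0.15) and Adora2b (4.40 TPM, against 2.24 to 2.84). Adk was low in microglia library 4 (13.6 TPM, against 26.1 to 30.7). Adora2a was high in astrocyte library 4 (4.69 TPM, against 2.27 to 2.80), and Slc29a4 in astrocyte library 5 (4.46 TPM, against 0.55 to 1.42). Without astrocyte library 5, Slc29a4 was no longer called between microglia and astrocytes (-0.74) and was called between astrocytes and neurons (-1.26).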

How the results depend on the processing

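Over 27 alternatives, no difference of the 10 genes changed direction among called values. Of their values, 785 stayed on the same side of the limits for a call, whether called or not, 4 lost a call and 18 gained one. For the pathway genes these were 2100, 22 and 32. The counts of the 10 genes called were 9, 9 and 2 for microglia minus astrocytes, microglia minus neurons and astrocytes minus neurons, and were 9, 9 and 2 with the replicate block as well, which changed no call. With a pseudocount of 0.1, 6 of the 10 were called between astrocytes and neurons (5 higher in astrocytes), and 3 pathway genes were lower in astrocytes. With array weights these were 4, 3 and 2. Without libraries numbered 1 and 2 they were 5, 4 and 2, and without those numbered 3 and 4, 1 of the 10 was called and 0 was lower in astrocytes, with limma. Leaving out each library in turn gave 2 to 5 called, 1 to 4 higher in astrocytes and 1 to 3 pathway genes lower in astrocytes. With a filter of 5 TPM, which tests fewer genes, 12 pathway genes were called between microglia and astrocytes (5 higher and 7 lower in microglia), 9 between microglia and neurons (4 lower), 5 between astrocytes and neurons (0 lower, with limma), and 1 of the 10 genes was lower in microglia than in neurons. Median-of-ratios scaling and quantile normalization each left 7 pathway genes lower in microglia than in astrocytes, and 1 of the 10 lower than in neurons. The cause was not tested. These scalings changed the counts over all genes to 2285 and 2048 higher and 2619 and 2471 lower in microglia than in astrocytes (1359 and 4313 as deposited). Against neurons they were 2107 and 1952 higher and 2655 and 2447 lower (1300 and 3945 as deposited). The unknown depth limits values under 1 TPM, such as those of Adora3 and P2ry13 in neurons.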
